A study of Macaca mulatta with 12 samples.

Results

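The miRNAs of muscle were compared with those of 7 other tissues of *Macaca mulatta*. The muscle samples were the 2 small RNA profiles labelled muscle, among 12 profiles of 8 tissues in all, and they were chosen by their label and not by any measured value. The other 10 profiles were 2 of kidney, 2 of small intestine, 2 of large intestine and 1 each of liver, lung, spinal cord and occipital lobe. All samples came from wild-type macaques of 36 months that received no treatment, so that the tissue is the only labelled difference between the groups. The study states that the tissues were taken from a pair of animals. The labels do not say which animal gave which profile, and p-values therefore measure only the spread between these profiles. No replicate was sequenced of liver, lung, spinal cord or occipital lobe.

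The deposited files are counts of unique small RNA sequences, with totals between 22118095 and 25579064 valid reads in a profile. A mature miRNA was counted when a read matched its pre-miRNA exactly and began and ended within 2 nucleotides of the mature ends. Levels are given as RPTM, the reads per 10000000 valid reads, so that 1 read stands for 0.391 to 0.452 RPTM. In muscle 1 and muscle 2, 58.9% and 60.6% of the valid reads were assigned to mature miRNAs, within the range of 35.9% to 68.4% of the other profiles. Of 1219 mature sequences, 773 had a read in some profile, and 371 passed the filter of the study on low abundance (mean level not under 5 RPTM, SD not under 1 RPTM). These 371 were tested with edgeR on the counts, in which spinal cord and occipital lobe formed 1 neural group. The spread that the fit estimated therefore includes the difference between these tissues. The main comparison was muscle against the mean of the other 6 groups on the log2 scale, in which each group had the same weight. A miRNA was called higher or lower at a Benjamini-Hochberg adjusted p under 0.05.

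A miRNA is cut from a hairpin precursor, loaded into an Argonaute protein, and pairs with mRNAs mainly through its seed, bases 2 to 8. Striated muscle has a small set of its own miRNAs, often called myomiRs. miR-1 and miR-133 are transcribed together, miR-1 favouring differentiation of muscle cells and miR-133 their proliferation. miR-206 is the relative of miR-1 in skeletal muscle, where it takes part in differentiation and in repair of the neuromuscular junction. miR-208a, miR-208b and miR-499 lie within the myosin heavy chain genes MYH6, MYH7 and MYH7B. MYH6 is the alpha myosin of heart, MYH7 is the myosin of slow muscle fibres and of heart, and these miRNAs take part in keeping the slow fibre programme. In the RefSeq annotation of the macaque assembly T2T-MMU8v2.0, which is not the build of the study and was used here for names and neighbours only, the miR-208a, miR-208b and miR-499 genes lie within these 3 genes. In the same annotation, miR-1-2 and miR-133a lie within MIB1.

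The mature sequences below were taken from the study's supplementary list of pre-miRNAs and are written 5’ to 3’ with the seed in capitals. They are shown because the muscle results turn on them, and because the members of a family differ in few bases.
mml-miR-1-3p: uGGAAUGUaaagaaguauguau
mml-miR-206-3p: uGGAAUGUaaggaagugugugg
mml-miR-133a-3p: uUGGUCCCcuucaaccagcug
mml-miR-133b-3p: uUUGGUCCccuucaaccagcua
mml-miR-133c-3p: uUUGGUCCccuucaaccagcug
mml-miR-208a-3p: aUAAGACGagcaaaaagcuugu
mml-miR-208b-3p: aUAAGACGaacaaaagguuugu
mml-miR-499-5p: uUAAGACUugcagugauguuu
miR-1-3p and miR-206-3p share the seed GGAAUGU. The listed miR-133a-3p begins 1 base downstream of miR-133b-3p and miR-133c-3p, so that its seed is shifted from UUGGUCC to UGGUCCC. miR-208a-3p and miR-208b-3p share the seed UAAGACG, and the seed of miR-499-5p differs from it in its last base.

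The muscle list, fixed from 9 pre-miRNAs of these families, holds 15 mature sequences, of which 13 had a read and 8 passed the filter. All 8 tested members were higher in muscle, beside 25.6% of all tested miRNAs called higher, and none was lower. In all 8, both muscle profiles lay above every other profile, beside 8.63% of all tested miRNAs, while 38.3% of all tested were called in either direction. The median log2 fold change of the 8 was 9.47, or 8.97 with groups at 0 set to the floor of 3 reads per library, beside a median of −0.11 over all tested miRNAs. The mean used in the filter includes the muscle profiles. miR-206-3p, miR-208b-3p and miR-133c-5p had only 7, 64 and 38 reads in the other 10 profiles together and passed it through muscle. Their part of these counts was thus fixed in advance by the filter. Nearly all reads of miR-133a-3p and miR-133c-3p are the same, so that the 8 are not separate results. A list of markers known for muscle is expected to be high there, and its count serves as a check of the label. Together the list reached 134569 RPTM in muscle 1 and 152878 RPTM in muscle 2. In the other 10 profiles the sum ranged from 55.3 RPTM in liver to 936 RPTM in large intestine 2, with a median of 349 RPTM. The list made 2.28% and 2.52% of the assigned reads of the muscle profiles and at most 0.0154% of those of any other. The cardiac miR-208a-3p had 2 reads in each muscle profile and none in the other 10, and miR-208a-5p had none in any of the 12. miR-206-3p, the marker of skeletal muscle, was present in both muscle profiles. The markers of skeletal muscle were thus detected in both profiles and the marker of heart was at 2 reads in each.

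**Figure D1:**
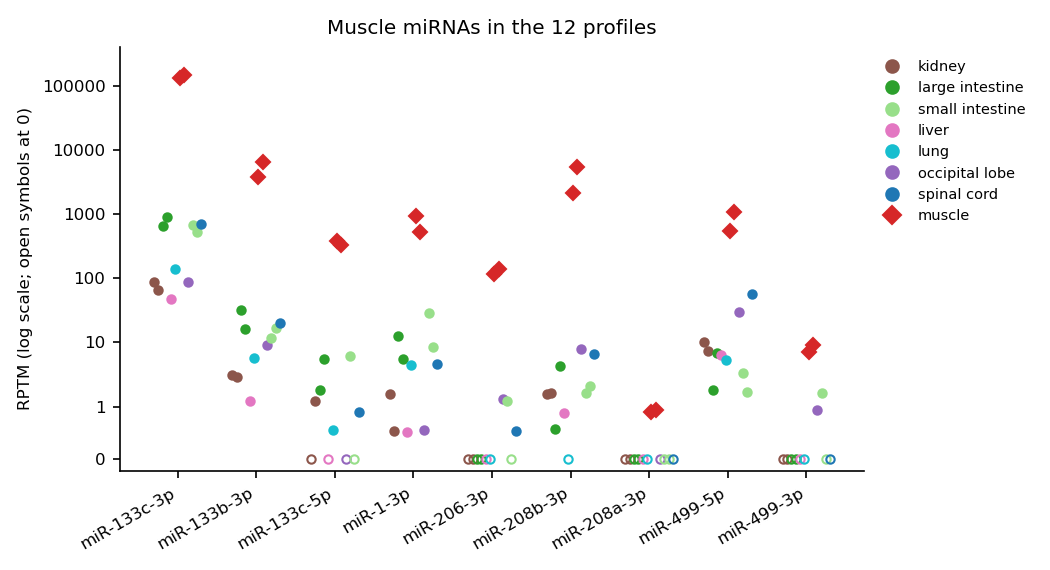
Levels of 9 mature miRNAs of the muscle list in the 12 profiles, in RPTM on a log scale to which 0 was added, with each profile as a symbol, muscle as red diamonds and open symbols for profiles at 0. Both diamonds lie above every other profile for each miRNA, and for miR-208a-3p they stand at 2 reads each with all other profiles at 0.

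The miR-133 family took nearly all of this signal. miR-133c-3p reached 129693 RPTM in muscle 1 and 144682 RPTM in muscle 2. In the other 10 profiles it ranged from 46.8 RPTM in liver, through a median of 334 RPTM, to 911 RPTM in large intestine 2. The lower muscle profile was 142 times the highest of the others, and the log2 fold change was 9.47 ± 0.58 (SE, edgeR adjusted p = 1.1e-06). Nearly all reads counted for miR-133c-3p were counted for miR-133a-3p as well, because these sequences differ only in their first base and the rule allows 2 nucleotides at each end. The values of both are therefore those of their sum, and the share of each gene cannot be told from these reads. miR-133b-3p ends in another base, but 84.4% of its reads also fit another miR-133 sequence. It stood at 3772 RPTM in muscle 1 and 6480 RPTM in muscle 2, against 1.21 to 32.1 RPTM with a median of 10.5 RPTM elsewhere. Its log2 fold change was 9.65 ± 0.40 (edgeR adjusted p = 1.5e-07). The 5p arm of miR-133c, none of whose reads fit another listed miRNA, reached 375 RPTM in muscle 1 and 325 RPTM in muscle 2. It was at 0 in 4 of the other 10 profiles, and the highest, small intestine 1, was at 6.14 RPTM, so that without shared reads too the groups did not overlap. Among the other tissues, miR-133c-3p was lowest in liver, kidney, occipital lobe and lung, at 46.8 to 139 RPTM, and it lay between 528 and 911 RPTM in the intestines and spinal cord.

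The reads of miR-133c-3p began at 2 places. In muscle 1, 61.5% of its 310875 reads began at the annotated first base and 38.2% began 1 base downstream, which is the first base of the listed miR-133a-3p. In muscle 2, the shares of its 332042 reads were 63.7% and 36.1%. Both seeds of the family, UUGGUCC and UGGUCCC, were thus present at high levels in muscle, in similar shares in both profiles. In the other profiles the share of the downstream start went from 16.96% (spinal cord) to 38.4% (kidney 1), its median being 29.0%. The muscle shares lay near the upper end of this range, and the kidney profiles, with 224 and 156 reads, were the nearest to them. Of the muscle reads of this family only 19.8% and 21.4% were identical to the listed miR-133c-3p over its whole length. The 5p arm was rare: 346 and 445 reads were counted for miR-133c-3p for each read of miR-133c-5p. The 3p count includes the reads shared with miR-133a-3p, so that this is not the arm ratio of miR-133c alone.

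**Figure D2:**
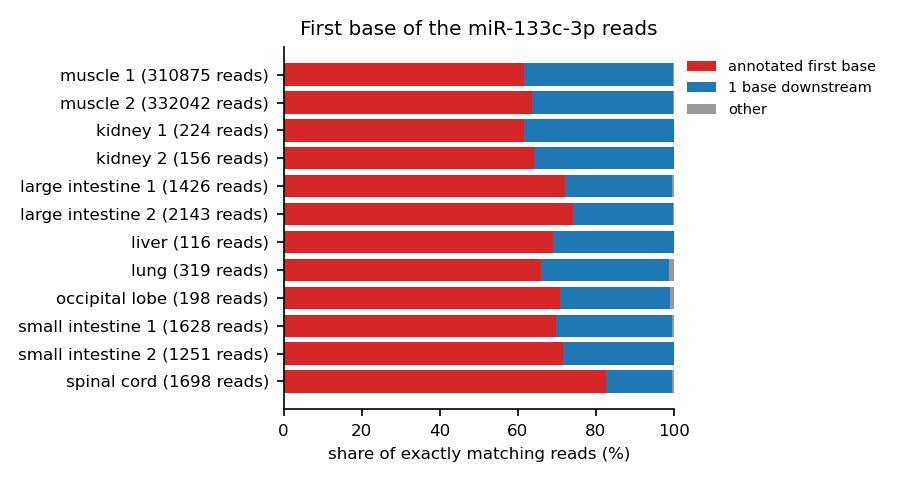
Share of the exactly matching miR-133c-3p reads of each profile, in percent, by the base at which they begin, with the number of reads beside each name. The 2 muscle profiles have 61.5% and 63.7% of their reads at the annotated first base, and spinal cord, at 82.6%, has the most.

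miR-1-3p stood at 940 RPTM in muscle 1 and 527 RPTM in muscle 2. The other profiles held between 0.403 RPTM in liver and 28.2 RPTM in small intestine 1, with a median of 4.49 RPTM. The groups did not overlap, and the log2 fold change was 8.03 ± 0.58 (edgeR adjusted p = 3.6e-06). The 4 intestine profiles followed muscle in the order of levels, with 5.53 to 28.2 RPTM. miR-206-3p stood at 117 RPTM in muscle 1 and 137 RPTM in muscle 2. Of the other 10 profiles 7 were at 0, and the highest, occipital lobe, held 1.30 RPTM. There were 596 reads in the muscle profiles and 7 in the others, a ratio per valid read of 432 with an exact 95% interval of 208.4 to 1080, which covers counting error only. Its adjusted p was 1.9e-05 with edgeR, and with the groups at 0 set to the floor of 3 reads per library the log2 fold change was 7.06. On the RPTM scale, miR-1-3p was thus well below miR-133c-3p in both muscle profiles.

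The levels of miR-1-3p and miR-206-3p carry a limit that the other muscle miRNAs do not. Both begin with UGGAAU, and the 3’ adapter that the study names for these libraries begins with the same 6 bases. Reads with these 6 bases inside made 54809 and 50227 RPTM in muscle 1 and muscle 2 and 45685 to 70422 RPTM in the other profiles, and most of them, 79.7% to 93.6% by profile, went on with the next 2 bases of that adapter or ended before them. Reads that began with these bases made 1426 and 939 RPTM in muscle 1 and muscle 2, and 31.6 to 274 RPTM elsewhere. Whether reads of miR-1-3p or miR-206-3p were lost when adapters were removed was not tested.

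Of the miRNAs of the myosin genes, miR-208b-3p reached 2113 RPTM in muscle 1 and 5326 RPTM in muscle 2, and elsewhere its maximum was 7.82 RPTM, in occipital lobe, with 0 in lung. Its log2 fold change of 11.71 ± 0.57 was the largest of all 371 tested miRNAs (edgeR adjusted p = 3.5e-07), and was 11.005 with lung set to the floor. The lower muscle profile held 270 times the level of the highest other. miR-499-5p stood at 536 RPTM in muscle 1 and 1061 RPTM in muscle 2, and between 1.69 and 57.3 RPTM in the others, with a median of 6.63 RPTM. Its log2 fold change was 6.91 ± 0.43 (edgeR adjusted p = 1.1e-06). Its next highest levels were those of spinal cord and occipital lobe, at 57.3 and 29.99 RPTM, so that the gap to the lower muscle profile was 9.35 times, the smallest of the 8 tested members. Both miRNAs were used from 1 arm: miR-208b-5p had 0 and 2 reads beside 5066 and 12223 of miR-208b-3p, and miR-499-3p had 17 and 21 reads beside 1284 and 2434 of miR-499-5p.

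The reads of these miRNAs began at the annotated base more often than those of miR-133c-3p. The shares at that base in muscle 1 and muscle 2 were 99.8% and 99.9% for miR-499-5p, 97.9% and 98.1% for miR-206-3p, 93.3% and 89.9% for miR-1-3p, and 90.7% and 93.9% for miR-208b-3p. A different base inside the mature miRNA was frequent in miR-499-5p. Shares are of the reads identical to the whole mature sequence plus those that differ from it only by the named change. The change C11U, in which the listed base comes first and positions are counted from the 5’ end of the mature miRNA, was carried by 286 of 1207 reads in muscle 1 (23.7%, Wilson 95% interval 21.4% to 26.2%) and by 787 of 2425 reads in muscle 2 (32.5%, 30.6% to 34.3%). It was also present in spinal cord, in 14 of 99 reads (14.1%, 8.61% to 22.3%), and in occipital lobe, in 13 of 55 (23.6%, 14.4% to 36.3%), and in lung in 5 of 12 reads. The intervals cover counting error only, since reads copied by PCR are not independent molecules, and the difference between single profiles was not tested. In miR-23b-3p, another miRNA with such a change, C10U was carried by 18.5% of 1280 reads in muscle 1 and 19.99% of 1906 reads in muscle 2. In the other 10 profiles it ranged from 4.17% in liver to 14.7% in large intestine 1, so that both muscle profiles lay above all others, a description of these profiles without a test. The same change in miR-23a-3p was carried by 8.14% and 9.14% of the reads in muscle and by 2.12% to 9.45% elsewhere, which overlap. In miR-125b-1-3p the change C11U was carried by 12.9% and 9.80% in muscle 1 and muscle 2. Elsewhere it went from 7.53% in liver to 19.97% in large intestine 2, which overlaps too. Reads with a changed base can come from loci outside the listed pre-miRNAs, which were not searched, and these miRNAs were picked after their values were seen.

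Over all 371 tested miRNAs, 95 (25.6%) were higher in muscle and 47 (12.7%) were lower. The median log2 fold change was 2.30 among the higher and −2.25 among the lower. In 32 of the 95 (8.63% of all tested) both muscle profiles lay above every other profile, and 13 (3.50% of all tested) lay below every other in both, of which 11 (2.96%) were called lower. Of the remaining 63 higher miRNAs, 40 were exceeded by a neural profile, 24 by lung and 14 by kidney in comparison with the lower muscle profile. The count depends on how the other tissues are weighted: with the other 10 profiles as 1 group, 28 miRNAs were higher and 2 were lower. All 8 tested muscle miRNAs were called in that fit too.

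**Figure D3:**
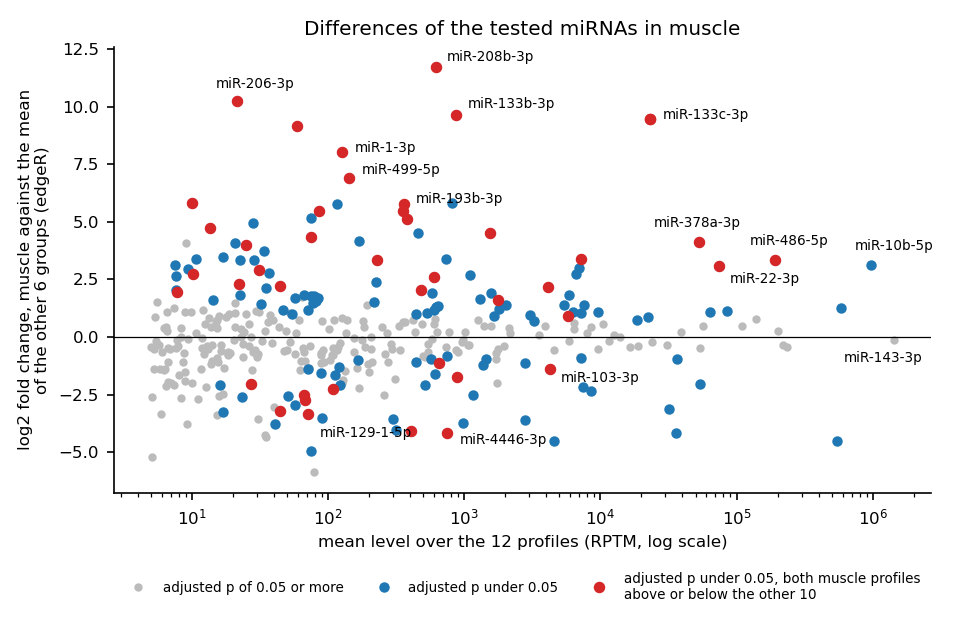
Log2 fold change of muscle against the mean of the other 6 groups, fitted with edgeR, for the 371 tested miRNAs, against their mean level over the 12 profiles in RPTM on a log scale. Blue points passed an adjusted p of 0.05, and red points also had both muscle profiles above (32) or below (11) the other 10, with miR-208b-3p at the top at 11.71.

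The 32 miRNAs above every other profile belonged to 20 families by number. In 7 of them the lower muscle profile was more than 10 times the highest other, and all 7 were members of the muscle list. In 20 it was more than 2 times the highest other, and the smallest gap was 1.07 times. These counts hold miR-133a-3p and miR-133c-3p as separate entries although they share nearly all their reads. Most reads of miR-133b-3p fit another miR-133 sequence too. Beyond the 8 muscle miRNAs, miR-486 had 3 mature sequences among the 32, miR-378 had 4, and miR-95, miR-193, miR-199 and miR-30 had 2 each. Of those of miR-486, 2 are the 3p arm as listed at 2 loci, and a read that fit both was counted for each. In 16 of the 32 the highest other profile was neural and in 8 it was liver.

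The sequences of 3 further miRNAs of this group are given because their gap to the other tissues or their level was large.
mml-miR-193b-3p: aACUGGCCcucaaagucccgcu
mml-miR-95-3p: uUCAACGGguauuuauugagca
mml-miR-22-3p: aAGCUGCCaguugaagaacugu
miR-193b, which has been linked to the development of muscle and brown fat, had 934 RPTM of its 3p arm in muscle 1 and 2807 RPTM in muscle 2. Elsewhere miR-193b-3p ranged from 12.7 to 189 RPTM, with liver highest, and the log2 fold change was 5.45 ± 0.44 (edgeR adjusted p = 6.9e-06). miR-365-3p, whose gene lies within 10000 bases of miR-193b in the annotation and was named after its values were seen, stood at 239 and 447 RPTM, against 2.17 to 100 RPTM with liver again highest. The log2 fold change of miR-365-3p was 4.36 ± 0.52.

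miR-95 was higher in both arms. miR-95-3p stood at 264 RPTM in muscle 1 and 488 RPTM in muscle 2, against 0.904 to 132 RPTM elsewhere, with spinal cord and occipital lobe next. Its log2 fold change was 5.46 ± 0.37 (edgeR adjusted p = 2.3e-06). miR-95-5p was at 52.6 and 27.5 RPTM, with 18.8 RPTM in spinal cord and 4 profiles at 0. The ratio of its arms differed between the muscle profiles, with 5.02 reads of miR-95-3p for each read of miR-95-5p in muscle 1 and 17.8 in muscle 2.

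miR-486, which lies within the ankyrin gene ANK1 and is known from muscle and from red blood cells, was among the most abundant miRNAs of muscle. miR-486-5p stood at 449798 RPTM in muscle 1 and 815652 RPTM in muscle 2. The other profiles held 9347 to 276764 RPTM, with a median of 66957 RPTM and occipital lobe highest, and the log2 fold change was 3.36 ± 0.36 (edgeR adjusted p = 5.4e-05). Its 3p arm, counted at the annotated locus, stood at 1882 and 1650 RPTM and was highest in occipital lobe outside muscle, at 437 RPTM. The red blood cell miRNAs miR-451 and miR-144 are given below, and their part in the level of miR-486-5p was not tested.

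miR-378a, a miRNA within the gene PPARGC1B of the mitochondrial regulator PGC-1beta, had 193141 RPTM of its 3p arm in muscle 1 and 266854 RPTM in muscle 2. Elsewhere miR-378a-3p lay between 3716 RPTM in spinal cord and 35786 RPTM in liver. The log2 fold change was 4.14 ± 0.33 (edgeR adjusted p = 5.9e-06), and the lower muscle profile was 5.40 times the highest other. The related miR-378b-3p and miR-378d-3p lay above every other profile too, at 79.3 and 127 RPTM and at 7100 and 7341 RPTM. miR-22-3p, which is abundant in heart and skeletal muscle, stood at 232300 and 303009 RPTM, against 14683 to 105946 RPTM, with liver highest. For miR-22-3p the log2 fold change was 3.08 ± 0.26 (edgeR adjusted p = 9.9e-06). Smaller gaps were seen for miR-30e-5p (8675 and 8621 RPTM, with 8062 RPTM in spinal cord) and miR-29a-3p (3537 and 3279 RPTM, with 3066 RPTM in spinal cord).

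The 11 miRNAs that were called lower and lay below every other profile in both muscle profiles were mostly of low level. miR-4446-3p had the largest gap, since muscle 1 held 7.51 RPTM, muscle 2 held 7.84 RPTM and the lowest other profile, liver, held 23.8 RPTM. It had a median of 147 RPTM and a maximum of 5080 RPTM, in occipital lobe, among the others, and a log2 fold change of −4.19 ± 0.52 (edgeR adjusted p = 0.00016). miR-129-1-5p, a miRNA of neurons, was at 0.834 and 1.31 RPTM, against 2.02 to 2539 RPTM (log2 fold change −4.07 ± 0.51). It had 5 reads in the 2 muscle profiles together, near the floor of 3 reads per library. miR-33a-5p, which lies within the sterol regulator gene SREBF2 in mammals and acts on cholesterol export, was at 5.42 and 3.92 RPTM, against 7.82 to 326 RPTM. The log2 fold change of miR-33a-5p was −3.35 ± 0.64 (edgeR adjusted p = 0.0024).

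Of the 11, 3 stood above 100 RPTM in both muscle profiles. miR-103-3p, which lies in the PANK genes of coenzyme A synthesis and shares 15.5% of its reads with another sequence, was at 1438 and 1186 RPTM, against 1720 to 13982 RPTM (log2 fold change −1.41 ± 0.27). miR-146a-5p, an inhibitor of inflammatory signalling, was at 301 and 186 RPTM, against 422 to 2587 RPTM (−1.75 ± 0.47). miR-320b-3p was at 194 and 186 RPTM, against 198 to 3043 RPTM (−1.15 ± 0.32), but 96.7% of its reads also fit another sequence. The other 5 were miR-330-5p, miR-1307-5p, miR-130b-3p, miR-342-5p and miR-369-3p, with log2 fold changes from −3.20 to −2.06. Of these, miR-330-5p had 5 reads in the 2 muscle profiles together, near the floor of 3 reads per library. Over the 13 miRNAs that lay below every other profile, called or not, the highest other profile was neural in 10.

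The most abundant miRNA of both muscle profiles was miR-10b-5p, a miRNA of the HOXD cluster. It stood at 1744760 RPTM in muscle 1 and 1408970 RPTM in muscle 2, or 29.6% and 23.3% of the assigned reads. Both kidney profiles were higher, at 3705810 and 2821420 RPTM, and occipital lobe was lowest at 8946 RPTM. Its log2 fold change was 3.14 ± 0.75 (edgeR adjusted p = 0.0084), and was 0.53 (adjusted p = 0.849) with the other 10 profiles as 1 group. The smooth muscle miRNA miR-143-3p was next in muscle 1, at 946138 RPTM, and the fourth in muscle 2, at 657534 RPTM. The other profiles ranged from 103028 to 3567910 RPTM, with muscle within this range (log2 fold change −0.11 ± 0.58, edgeR adjusted p = 0.93). let-7f-5p was at 884449 and 1017170 RPTM (1.24 ± 0.32, adjusted p = 0.012) and let-7a-5p at 166886 and 183379 RPTM (0.25 ± 0.31, adjusted p = 0.57). miR-30a-5p was at 153128 and 140657 RPTM (0.77 ± 0.29, adjusted p = 0.066). Together with miR-486-5p, miR-22-3p, miR-378a-3p and the shared miR-133a-3p and miR-133c-3p, these made the 10 highest by mean level in muscle. Since levels are shares of all valid reads, the most abundant miRNAs of a tissue lower the levels of the rest.

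The myogenesis list holds regulators of muscle differentiation that many tissues express, such as miR-24, miR-26a, miR-27, miR-29, miR-181, miR-214, miR-378 and miR-486. Of its 24 tested members, 16 were higher in muscle, 0 were lower and 8 were not called, beside 25.6% of all tested miRNAs called higher. Its median log2 fold change was 1.44. Members of the miR-29 family, which act on collagens and on muscle differentiation, rose: miR-29a-3p by 1.61 ± 0.21, miR-29b-3p by 1.56 ± 0.34 and miR-29c-3p by 1.17 ± 0.27. miR-27a-3p (1.90 ± 0.29) and miR-24-3p (1.32 ± 0.24) rose as well, while miR-27b-3p (0.48 ± 0.27, edgeR adjusted p = 0.20) and miR-181a-5p (−0.35 ± 0.34, adjusted p = 0.43) were not called. The summed level of the list was 991928 and 1427450 RPTM in muscle, within the range of 135130 to 1646260 RPTM of the others, of which occipital lobe was highest. Without muscle 1 the median log2 fold change of the list was 1.08, and without muscle 2 it was 1.48. With the other 10 profiles as 1 group 6 members were higher. That fit called a smaller share of all tested miRNAs higher than the main one did.

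The miRNAs of the HOX clusters were higher in muscle against the mean of the other groups in 5 of 7 tested members, beside 25.6% of all tested miRNAs. miR-196a-5p was at 2584 and 1758 RPTM (log2 fold change 5.83 ± 0.77, edgeR adjusted p = 0.00022) and miR-196b-5p at 968 and 609 RPTM (4.52 ± 0.64). In kidney miR-196a-5p was at 2213 and 1622 RPTM and miR-196b-5p at 728 and 687 RPTM, near the levels of muscle. In the intestines miR-196a-5p was lower, at 21.3 to 654 RPTM, and miR-196b-5p ranged from 2.46 to 1265 RPTM. In liver, lung, occipital lobe and spinal cord, miR-196a-5p was at most 6.56 RPTM. When only the 8 profiles of the 4 tissues with replicates were fitted, 0 of the 7 were higher and 2 were lower. That fit called a larger share of all miRNAs lower than the main one did. Without muscle 1 in the full fit the median log2 fold change of the 7 was 3.17. With the other 10 profiles as 1 group, a fit that called few of all tested miRNAs, none was called.

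The 5 tested members of the stromal list, miR-199a and miR-214 of fibroblasts and connective tissue, were all higher in muscle, beside 25.6% of all tested miRNAs, with a median log2 fold change of 2.04. With the other 10 profiles as 1 group, a fit that called few of all tested miRNAs, none of the 5 was called. Against large intestine none of the 5 was called either, beside 31.0% of all tested miRNAs. Their summed level was 20408 RPTM in muscle 1 and 8788 RPTM in muscle 2, above the highest other profile, large intestine 1, at 7355 RPTM. Most of the sum was miR-199a-3p, at 18527 RPTM in muscle 1, against 6357 RPTM in muscle 2 and 6733 RPTM in large intestine 1 (log2 fold change 1.83 ± 0.35). Without muscle 1, 2 of the 5 stromal members were called. The endothelial miR-126-3p was at 1769 and 2049 RPTM, against 325 to 9051 RPTM with lung highest (0.90 ± 0.30, edgeR adjusted p = 0.036), and was not called when either muscle profile was left out. None of the 4 tested miRNAs of the smooth muscle list was called, beside 38.3% of all tested miRNAs. The sum of this list, 947156 and 658798 RPTM, lay below the median of the other profiles, 1083180 RPTM. In bulk tissue, fewer cells of a type and less RNA per cell cannot be told apart, and what part these cell types have in the muscle results was not tested.

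Markers of epithelia were low in muscle. Of the 12 tested members of the epithelial list, 6 were lower and 0 higher, beside 12.7% of all tested miRNAs called lower, with a median log2 fold change of −2.82. The miR-200 family, which keeps epithelial cells in their state, was below the median of the other profiles: miR-200a-3p was at 11.7 and 3.05 RPTM, against 1.26 to 794 RPTM elsewhere, miR-429-3p at 26.7 and 16.1 RPTM, against a median of 1052 RPTM, and miR-141-3p at 137 and 33.6 RPTM, against a median of 2276 RPTM. The other 6 members were not called. Among them miR-182-5p was at 13992 RPTM in muscle 1 and 41128 RPTM in muscle 2, within the range of the others (1897 to 97610 RPTM, log2 fold change 0.22 ± 0.82), and miR-183-5p (0.22), miR-96-5p (0.73) and miR-205-5p (4.07, adjusted p = 0.052) had values above 0 as well. Of the 5 tested members of the gut and kidney list, 4 were lower, with a median of −4.52. With the other 10 profiles as 1 group, a fit that called few miRNAs lower, no member of either list was called. In the fit of the 8 profiles with replicates 10 of the 12 epithelial members were lower. That fit called a larger share of all miRNAs lower than the main one did. miR-192-5p of the gut and kidney list was at 6511 and 7409 RPTM in muscle, above lung at 4096 RPTM and below all 9 others, up to 1873840 RPTM in small intestine 1 (−4.53 ± 0.70). The liver miRNA miR-122a-5p, at 7320 RPTM in liver, was at 3.75 and 1.31 RPTM in muscle, and its call as lower (−1.60 ± 0.49) turned to a log2 fold change of 0.33 without liver.

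Among the 8 tested miRNAs of immune cells, miR-150-5p of lymphocytes was higher (1473 and 2354 RPTM, log2 fold change 1.65 ± 0.29, edgeR adjusted p = 0.0014), and miR-146a-5p and the myeloid miR-223-3p (22.9 and 47.1 RPTM, −1.29 ± 0.43) were lower. Thus 1 of 8 was higher and 2 were lower, beside 25.6% and 12.7% of all tested miRNAs. For miR-150-5p the lower muscle profile was only 0.214 times the highest other, and it was not called against large intestine. With the other 10 profiles as 1 group none of the 8 was called (edgeR adjusted p = 0.590 for miR-150-5p). That fit called few of all tested miRNAs. The summed level of the immune list was 7904 and 10444 RPTM, below the median of 12264 RPTM of the others. Of the 45 tested miRNAs of the imprinted DLK1-DIO3 cluster, 5 were lower, near the 12.7% of all tested miRNAs, and 0 were higher, with a median of −0.74. With either muscle profile left out none of the 45 was called. Its sum of 6113 and 5756 RPTM was near the median of 6534 RPTM elsewhere and far below spinal cord, at 106927 RPTM.

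The neuronal list split. miR-9-5p (294 and 213 RPTM, log2 fold change −2.06 ± 0.35), miR-124a-3p (3.75 and 0.871 RPTM, −2.51 ± 0.66), miR-129-1-5p, miR-132-3p and miR-138-5p were lower, and miR-128 was higher. The levels of miR-9-5p were highest in occipital lobe and spinal cord, at 383871 and 261318 RPTM, and its muscle levels lay within the range of the other profiles. miR-128b-3p was at 4364 RPTM in muscle 1 and 4645 RPTM in muscle 2 (2.996 ± 0.27, edgeR adjusted p = 1.7e-05), and 72.0% of its reads also fit another sequence, chiefly miR-128a-3p of the same seed. Occipital lobe, at 47190 RPTM, and spinal cord, at 24828 RPTM, were higher than muscle, while the other 8 profiles lay between 173 and 411 RPTM. Of the host genes of miR-128 in the annotation, R3HDM1 holds miR-128a and ARPP21 holds miR-128b. The 5p arm, which is not shared, gave the same order for miR-128b: 90.9 and 89.3 RPTM in muscle and 807 RPTM in occipital lobe, with a median of 0.800 RPTM elsewhere. Thus 3 of 16 tested members were higher and 5 were lower, beside 25.6% and 12.7% of all tested miRNAs, and 8 were not called. With the other 10 profiles as 1 group none of the 16 was called, and miR-128b-3p had a log2 fold change of 0.50 (edgeR adjusted p = 0.853). That fit called few of all tested miRNAs. None of the 4 tested oligodendrocyte miRNAs was called in the main comparison, beside 38.3% of all tested miRNAs. Their sum of 293 and 61.4 RPTM lay far below spinal cord, at 27365 RPTM.

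**Figure D4:**
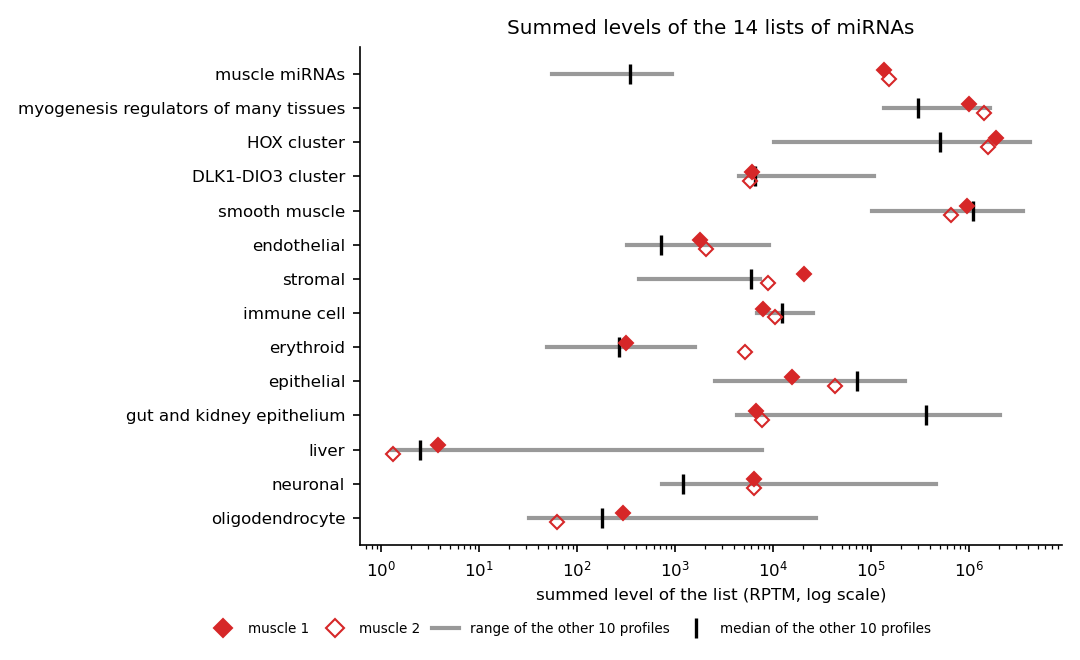
Summed levels of the 14 lists in muscle 1 (filled diamonds) and muscle 2 (open diamonds), in RPTM on a log scale, with the range (grey line) and median (black tick) of the other 10 profiles. Both muscle profiles lie above the grey line for the muscle list and the stromal list, and muscle 2 alone does for the erythroid list, at 5207 RPTM.

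The other comparison was muscle against large intestine, a tissue rich in smooth muscle and, like muscle, with 2 profiles. In it 75 of the 371 miRNAs (20.2%) were higher in muscle and 40 (10.8%) were lower, 31.0% in all, with a median log2 fold change of 0.08. The higher share of these calls was 65.2%, and 78.0% when valid reads alone set the scale, which moved the median to 0.54. All 8 tested muscle miRNAs were higher, though miR-133c-5p missed the threshold (adjusted p = 0.062) without large intestine 1. The log2 fold change was 6.98 for miR-133c-3p (edgeR adjusted p = 0.00025), 7.27 for miR-133b-3p (adjusted p = 6.3e-05), 5.88 for miR-1-3p (adjusted p = 0.00080) and 10.10 for miR-208b-3p (adjusted p = 6.3e-05). miR-206-3p had no read in large intestine and was at least 96.7-fold higher in muscle, counted against 3 reads per library. These values are smaller for miR-133 and miR-1 than those against the mean of the other groups, which share the large intestine profiles as part of their reference.

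Other miRNAs with large differences from large intestine were miR-95-3p (log2 fold change 7.24), miR-885-5p (7.55) and miR-489-3p. miR-885-5p was at 145 and 98.5 RPTM in muscle and at 0.452 and 0.425 RPTM in the large intestine profiles, but liver, occipital lobe and spinal cord were higher than muscle, at 190 to 264 RPTM. miR-489-3p, which lies within the calcitonin receptor gene CALCR and is known from resting muscle stem cells, was at 22.9 RPTM in muscle 1 and 23.5 RPTM in muscle 2 and had no read in large intestine, so that muscle was at least 17.7-fold higher. Kidney, at 86.8 and 64.9 RPTM, and spinal cord, at 35.1 RPTM, exceeded muscle.

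The lowest against large intestine were epithelial miRNAs. The log2 fold change was −7.27 for miR-194-2-3p and miR-141-5p, −7.23 for miR-200a-5p, −7.13 for miR-192-5p and −7.11 for miR-429-3p, with edgeR adjusted p from 6.3e-05 to 0.00018. miR-215-3p had no read in either muscle profile and was at least 9.81-fold lower there. The smooth muscle miR-143-3p was lower in muscle than in large intestine (−2.36, edgeR adjusted p = 0.043). That call was lost without either muscle profile and in 7 of the other alternatives. The HOX miRNAs were not called in this comparison, 0 of 7, beside 31.0% of all tested miRNAs.

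The 2 muscle profiles were about as alike as the pairs of other tissues. The median absolute log2 ratio of the tested miRNAs was 0.46 in muscle, 0.52 in kidney, 0.44 in large intestine and 0.45 in small intestine. Of 164 miRNAs with at least 100 RPTM in a muscle profile, 22 differed by more than 2-fold, and in the other 3 pairs 12 to 18 did. With 1 profile on each side these differences have no test. The red blood cell miRNA miR-451-5p differed most, at 295 RPTM in muscle 1 and 5006 RPTM in muscle 2, and miR-144-3p, of the same cluster, went from 18.4 to 200 RPTM. The sum of this erythroid list was 313 RPTM in muscle 1 and 5207 RPTM in muscle 2, with at most 1604 RPTM, in lung, elsewhere. Beside 25.6% of all tested miRNAs called higher, 1 of the 2 members of the list was higher, miR-451-5p. Its call in muscle (log2 fold change 3.37 ± 0.65, edgeR adjusted p = 0.0026) rested on muscle 2: without that profile the log2 fold change was 0.24 and the adjusted p 0.82. miR-1271-5p went from 155 to 1233 RPTM and miR-100-5p from 2652 to 10570 RPTM, while miR-338-3p went from 282 down to 54.9 RPTM and miR-141-3p from 137 down to 33.6 RPTM.

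The muscle miRNAs did not shift together between the profiles. In muscle 2, miR-208b-3p was 2.52 times, miR-499-5p 1.98 times, miR-133b-3p 1.72 times and miR-193b-3p 3.01 times the level in muscle 1. miR-206-3p (1.17 times) and miR-133c-3p (1.12 times) differed little, and miR-1-3p was 0.561 times its level in muscle 1. miR-486-5p was 1.81 times higher in muscle 2, a smaller difference than that of miR-451-5p. Samples from different muscles or animals and the content of blood cannot be told apart here.

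**Figure D5:**
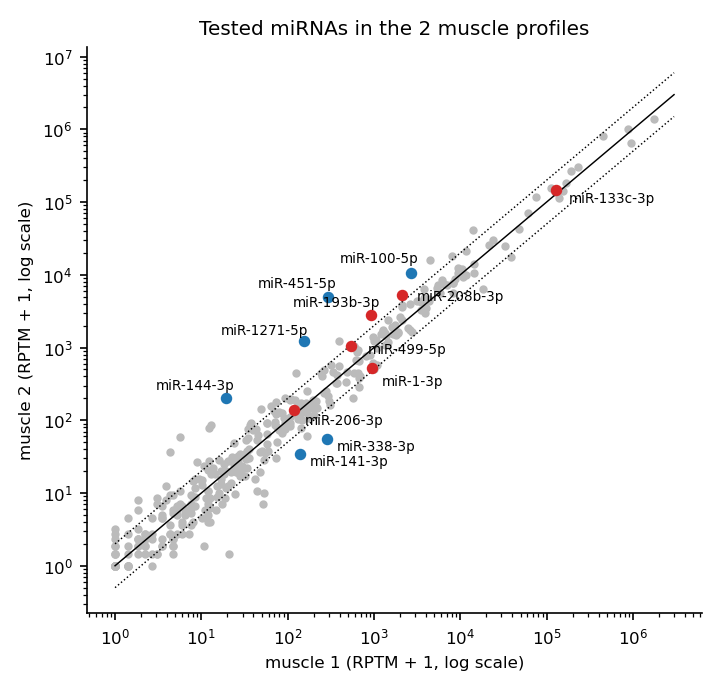
Levels of the 371 tested miRNAs in muscle 1 and muscle 2, in RPTM plus 1 on log scales, with the line of equal levels and dotted lines at 2-fold. Red points are 6 miRNAs high in muscle and blue points are the 6 with the largest ratio between the muscle profiles among those of at least 100 RPTM, of which miR-451-5p is at 295 and 5006 RPTM.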

How the data were processed

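The authors removed adapters from reads with high sequencing scores, kept sequences of 18 nucleotides or longer, and deposited counts of unique sequences, without normalization. Sequences were matched in Python 3.11.15 with pandas 2.3.3 and numpy 2.4.6 to 832 pre-miRNAs that could be read from the study's supplementary list, and a read that fit several mature miRNAs was counted for each. The fit used edgeR 4.0.16 in R 4.3.3 (quasi-likelihood test, TMM factors, valid reads as library size) with 7 groups and 5 residual degrees of freedom, and DESeq2 1.42.0 was an alternative. The scripts were tested on simulated data. Other alternatives were other scalings, filters, groupings and rules of assignment, the number of the replicate as a block, and omitting each profile in turn.

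The named miRNAs were the muscle list, the 12 largest changes in each direction among those with both muscle profiles beyond all others, the 10 most abundant in muscle, the 3 highest of each other list, the 6 largest differences between the muscle profiles, and the 6 largest in each direction against large intestine. Members outside this rule that are given as examples of a list or a count were named after their values were seen. The members and lists were chosen with earlier results of these data known. No genome was used, so that coordinates in the study's build are not given.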

Additional observations from a re-analysis of the deposited data

How the results depend on the processing

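Over all repeats of a named miRNA's comparison under another setting, 3042 kept their direction and their side of the threshold, 149 lost the call, 109 gained it and 66 changed sign, 1 of them in a miRNA called in the main comparison, miR-122a-5p. All 8 tested muscle miRNAs were called against the mean of the other groups in all 25 alternatives, and 7 of them against large intestine in all 23, the exception being miR-133c-5p. Leaving out 1 profile gave 64 to 92 higher and 20 to 71 lower miRNAs against the mean of the other groups, with 29 and 20 lower without muscle 1 and muscle 2 and 71 without occipital lobe or spinal cord. Against large intestine it gave 37 to 76 higher (37 and 45 without large intestine 1 and 2) and 23 to 69 lower (26 and 25 without these, 23 without muscle 2, 69 without occipital lobe, 68 without spinal cord). DESeq2 called 71 lower against the mean and 62 against large intestine, and reads identical to the mature sequence gave 24 lower against the mean of 262 tested. The fit with the other 10 profiles as 1 group gave 28 higher and 2 lower. A replicate block on the 8 numbered profiles gave 73 and 69 lower of 301 tested miRNAs in the 2 comparisons. The same profiles without the block gave 75 and 71. The numbers do not pair the profiles, with correlations of −0.139 to 0.153. The other sign changes were in miRNAs not called in the main comparison. Against the mean of the other groups, the fits of the 8 profiles with and without the block gave −1.02 and −1.02 for miR-145-3p, −0.66 and −0.66 for miR-145-5p, −1.67 and −1.60 for miR-182-5p and 0.054 and 0.054 for miR-181a-5p, and 0.23 without the block for miR-338-3p. The other 10 profiles as 1 group gave −0.69 for miR-145-3p, −0.40 for miR-145-5p and −0.79 for miR-182-5p. Without the neural profiles the values were −0.39 for miR-145-3p, −0.16 for miR-182-5p, 0.51 for miR-338-3p and 0.51 for miR-219-5p. Without a filter miR-145-3p was at −0.00800 and miR-182-5p at −0.0139, with 8 groups miR-143-3p was at 0.39 and miR-10a-5p at 0.67, and with identical reads miR-182-5p was at −1.09 and miR-219-5p at 0.36. Leaving out 1 profile gave ranges of −2.56 to 0.33 for miR-122a-5p, −0.43 to 0.14 for miR-143-3p, −0.76 to 0.21 for miR-10a-5p, −0.075 to 0.45 for miR-145-3p, −0.79 to 2.61 for miR-144-3p, −0.73 to 0.79 for miR-182-5p, −1.77 to 0.62 for miR-338-3p, −5.09 to 0.19 for miR-219-5p and −1.46 to 0.50 for miR-100-5p. Against large intestine, miR-122a-5p and miR-338-3p were at −0.12 and −0.051 with RLE factors, −0.12 and −0.051 with DESeq2, −0.17 and −0.15 without a filter, and −0.13 and −0.080 with the reads of the tested miRNAs as library size. miR-338-3p was at −0.17 with identical reads and at −0.49 and −0.11 with and without the block, miR-219-2-3p at 0.066 with valid reads and 0.22 with identical reads, and miR-219-5p at 0.34 and 2.55. Leaving out 1 profile gave −0.89 to 0.64 for miR-122a-5p, −1.52 to 0.87 for miR-338-3p, −4.43 to 0.86 for miR-219-5p, −0.31 to 1.65 for miR-100-5p and −0.49 to 1.09 for miR-199a-3p. The causes of these changes of sign were not tested, and some of these settings use fewer samples or miRNAs. Valid reads in place of TMM factors moved the median of all miRNAs against large intestine from 0.08 to 0.54 and the higher share of its calls from 65.2% to 78.0%. With the reads of the tested miRNAs as library size, an alternative added after the data were seen, that share was 56.5%. At this depth a level of 0 allows up to 3 reads per library.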
